A study of Mus musculus with 3 samples.

Results

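The small leucine-rich proteoglycans are secreted matrix proteins built from a row of leucine-rich repeats, and 9 of their genes were followed here: Dcn, Lum, Fmod, Bgn, Ogn, Omd, Prelp, Aspn and Podn. They were taken by gene name, as every probe set that the platform annotation assigns to exactly 1 of them, which gave 13 probe sets for 9 of the 17097 genes that the annotation names on the array. The cells measured were mesenchymal progenitors from adult mouse bone marrow (PaS+ in the labels; strain C56Bl/6, aged 8 weeks), on 3 Affymetrix arrays. All cells were sorted by FACS, kept in MesenCult complete medium for 7 days at 1% oxygen, transduced overnight with a lentiviral vector and collected 4 days after transduction. The vector carried a short hairpin RNA (shRNA) against HIF-1α on the shHIF-1a array, one against HIF-2α on the shHIF-2a array and a control sequence on the shCTR array, so low oxygen, lentivirus and a hairpin were common to all 3. The labels name 1 array per shRNA, and neither a hairpin sequence nor a second culture or animal.

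In connective tissue these proteoglycans coat collagen fibrils and set how thick the fibrils grow and how they are spaced. Class I members (Dcn, Bgn and Aspn) are close relatives, and decorin and biglycan carry chondroitin or dermatan sulfate chains. Class II members (Fmod, Lum, Prelp and Omd) are often decorated with keratan sulfate, Ogn belongs to class III and Podn to a more distant class. Several of them also bind growth factors of the TGF-β family or receptors at the cell surface. The comparisons ask how their transcripts differed in progenitors given a hairpin against either oxygen-regulated HIF subunit under low oxygen.

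Of the 9 genes, 6 gave a signal on all 3 arrays and 3 did not. A probe set was taken as detected where its intensity, the deposited linear RMA value, reached 3.47, the highest reading of any nonspecific control probe set on any array. Dcn, Lum, Fmod, Bgn, Ogn and Prelp passed on every array with each of their 9 probe sets. The 4 probe sets of Omd, Aspn and Podn lay under that level on every array, so no difference is given for these genes. With 1 array per shRNA no difference could be tested, and every value below describes these 3 arrays alone. In bulk RNA of this kind, fewer cells that express a gene and less of its RNA per cell cannot be told apart.

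The genes lie partly side by side in the mouse genome. In the RefSeq annotation of assembly GRCm38.p6, Dcn and Lum are adjacent protein-coding genes on chromosome 10, Prelp and Fmod are adjacent on chromosome 1, and Aspn, Omd and Ogn follow each other on chromosome 13. Bgn lies on chromosome X and Podn on chromosome 4. RefSeq promoter windows, from 250 bases before to 50 bases after a start site, were matched for 7 of the 9 genes, with 8 windows in all. The 250 bases before the start are shown for 3 genes whose differences between the arrays were large (Fmod), intermediate (Ogn) and small (Bgn). Capitals mark the motifs that were searched on both strands: ACGTG, a form of the core of the HIF binding site, the TATA sequence TATAAA, and GGGCGG, the GC box. The other form of the HIF core, GCGTG, was neither searched nor marked.
Fmod, chr1:134037004-134037253, plus strand of GRCm38.p6: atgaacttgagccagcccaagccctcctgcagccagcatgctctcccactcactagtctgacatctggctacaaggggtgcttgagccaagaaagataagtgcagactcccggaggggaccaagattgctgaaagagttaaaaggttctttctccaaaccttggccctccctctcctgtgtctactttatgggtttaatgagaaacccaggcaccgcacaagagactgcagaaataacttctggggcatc
Ogn, chr13:49607765-49608014, plus strand of GRCm38.p6: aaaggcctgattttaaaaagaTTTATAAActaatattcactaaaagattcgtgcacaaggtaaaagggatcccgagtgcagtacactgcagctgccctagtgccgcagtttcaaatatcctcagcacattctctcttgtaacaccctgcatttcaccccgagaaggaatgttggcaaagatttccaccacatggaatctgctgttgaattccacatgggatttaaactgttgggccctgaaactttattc
Bgn, chrX:73483351-73483600, plus strand of GRCm38.p6: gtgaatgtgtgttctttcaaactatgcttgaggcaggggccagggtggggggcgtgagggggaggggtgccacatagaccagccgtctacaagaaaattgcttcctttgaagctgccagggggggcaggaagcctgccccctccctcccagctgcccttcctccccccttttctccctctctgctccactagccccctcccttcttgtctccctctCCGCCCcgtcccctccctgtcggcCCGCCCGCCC

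The Fmod window held none of these motifs, and the 250 bases shown had a GC content of 51.2%. The Bgn window, with 64.4% GC in the bases shown, held GGGCGG on the reverse strand at 3 places, first bases −34, −10 and −6 counted from the start site, the last 2 of them overlapping. The Ogn window, with 42.0% GC in the bases shown, held TATAAA and its reverse complement, which overlap, at −227 and −229, far from where a TATA box usually lies. Among the 8 windows of the members, ACGTG was found in 1, that of Aspn at −131, and in 19.6% of all 32851 promoters of the same length. TATAAA was found in 2 of the 8 windows and in 13.6% of all promoters, and GGGCGG in 2 of the 8 and in 35.7% of all. A match is a run of letters and not a known binding site.

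**Figure D1:**
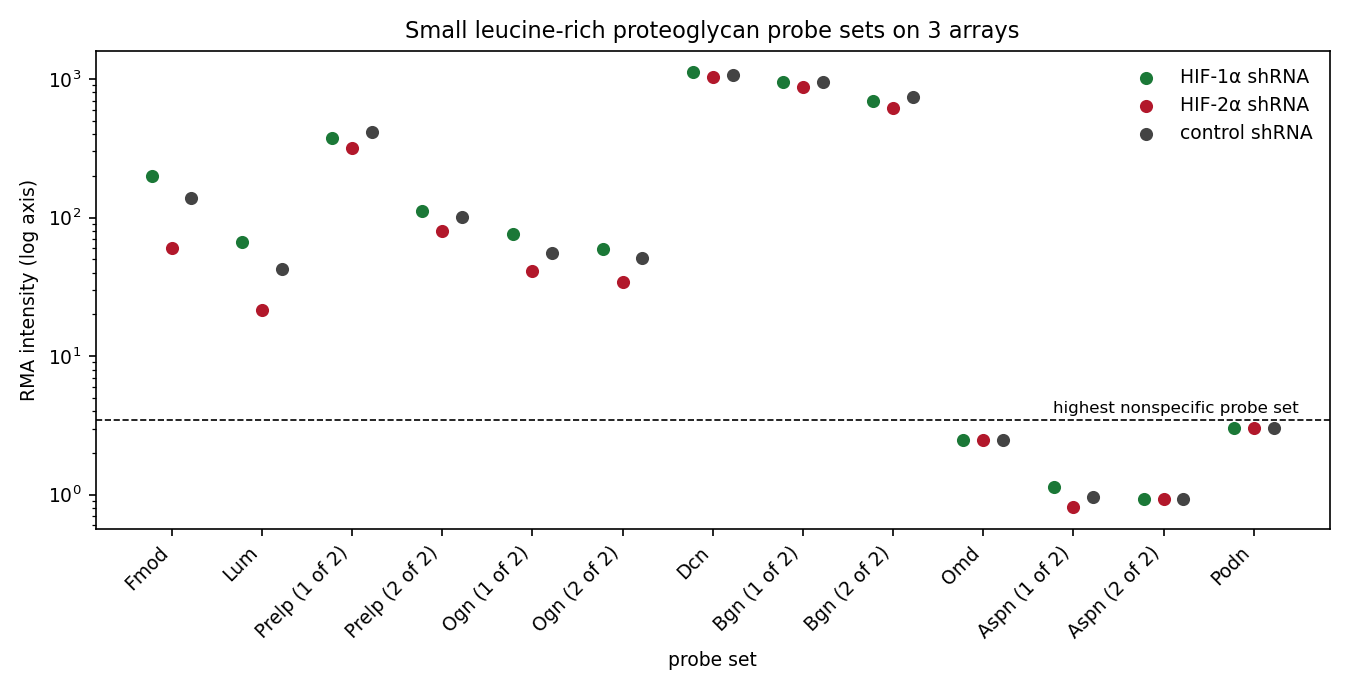
RMA intensity of each of the 13 probe sets on the arrays of HIF-1α shRNA, HIF-2α shRNA and control shRNA (1 point per array, log axis; dashed line, the highest nonspecific probe set at 3.47). Fmod and Lum are spread widest over the arrays, with the HIF-2α point lowest, whereas the points of Dcn and Bgn nearly coincide and those of Omd, Aspn and Podn lie under the line.

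The targeted genes give the frame for the labels. Hif1a read 332.4 on both the shHIF-1a and the shHIF-2a array, against 352.1 on the shCTR array, so its probe set did not tell the hairpins apart. Epas1, the gene of HIF-2α, read 9.44 on the shHIF-1a array and 3.21 on the shHIF-2a array, against 5.09 on the shCTR array, and was at least 1.47-fold lower than control with the hairpin against it. The arrays are therefore called by the hairpin in their titles, and directions rest on those labels. All 11 mesenchymal markers on the array passed the nonspecific level on all 3 arrays. The dimmest, Lepr, was close to it, at 3.86 on the shHIF-1a and 5.34 on the shHIF-2a array, against 4.47 on the shCTR array. Ly6a, also sought as a mesenchymal marker, had no probe set annotated to it alone. Ptprc (CD45) and Pecam1 (CD31), markers of blood and endothelial cells, stayed under the nonspecific level on each array. Of 9 blood markers on the array 1 was detected, Cd68 at 7.24 on the shHIF-2a array, and of 8 endothelial markers 1, Egfl7.

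Fmod and Lum, both of class II, showed the widest differences. Fmod encodes fibromodulin (Entrez gene 14264), which binds collagen and guides its cross-linking. It read 201.0 on the shHIF-1a array and 60.3 on the shHIF-2a array, against 139.0 on the shCTR array. The shHIF-2a array was thus the low one, at 43.4% of control or 2.31-fold lower, a log2 difference of −1.21. The shHIF-1a array was the high one, at 145% of control and a log2 difference of 0.53. With 32 added before log2, which shrinks differences of dim probe sets, the difference with the HIF-2α hairpin was −0.89, under 2-fold.

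Lum encodes lumican (Entrez gene 17022), which sets fibril spacing and is needed for a clear cornea. It read 66.2 on the shHIF-1a array and 21.6 on the shHIF-2a array, against 42.5 on the shCTR array, the same order as for Fmod. With the HIF-2α hairpin it was at 50.7% of control, a log2 difference of −0.98 that fell just short of 2-fold, and with the HIF-1α hairpin at 156% of control, a difference of 0.64. After cyclic loess or quantile scaling the Lum difference with the HIF-2α hairpin passed 2-fold, and with 32 added before log2 it was −0.48.

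Ogn, Prelp and their second probe sets lay between the extremes. Ogn encodes osteoglycin (Entrez gene 18295), also called mimecan, a regulator of fibril growth. Its brighter probe set read 75.6 on the shHIF-1a and 41.2 on the shHIF-2a array, against 55.2 on the shCTR array, and the other read 59.8 on the shHIF-1a array and 34.4 on the shHIF-2a array, against 51.2 on the shCTR array. The order of the arrays was the same with either probe set, and the log2 differences from control were −0.42 and −0.57 with the HIF-2α hairpin and 0.45 and 0.22 with the HIF-1α hairpin.

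Prelp (Entrez gene 116847) encodes a proteoglycan with an arginine- and proline-rich end that ties collagen to basement membranes. Its brighter probe set, whose name marks it as shared between transcripts, read 378.4 on the shHIF-1a and 315.5 on the shHIF-2a array, against 413.2 on the shCTR array. The other read 112.3 on the shHIF-1a array and 79.9 on the shHIF-2a array, against 101.3 on the shCTR array. Both put the shHIF-2a array lowest, at log2 differences of −0.39 and −0.34, but they disagreed on the shHIF-1a array, at −0.13 and 0.15.

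Dcn and Bgn, of class I, stayed close to control on both shRNA arrays. Dcn encodes decorin (Entrez gene 13179), which binds collagen and TGF-β. It read 1116 on the shHIF-1a and 1041 on the shHIF-2a array, against 1064 on the shCTR array. The log2 difference with the HIF-2α hairpin was −0.03, and cyclic loess and quantile scaling turned it to 0.07 and 0.01. With the HIF-1α hairpin it was 0.07.

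Bgn encodes biglycan (Entrez gene 12111), a matrix proteoglycan that is also a ligand of Toll-like receptors once released. Its brighter probe set read 945.7 on the shHIF-1a and 879.1 on the shHIF-2a array, against 953.1 on the shCTR array. The other read 690.6 on the shHIF-1a array and 615.6 on the shHIF-2a array, against 743.4 on the shCTR array. The log2 differences were −0.12 and −0.27 with the HIF-2α hairpin, and −0.01 and −0.11 with the HIF-1α hairpin, where cyclic loess turned the −0.01 of the first probe set to 0.07.

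The remaining genes lay under the nonspecific level. Omd, the gene of the bone proteoglycan osteomodulin, read 2.49 on each of the 3 arrays, and Podn, the gene of podocan, 3.02 on each. The 2 probe sets of Aspn, the gene of the TGF-β-binding protein asporin, read between 0.81 and 1.13. Ogn was thus detected on every array while its neighbours Omd and Aspn were not. The 8 other members of the wider family on the array, among them Epyc, did not reach the nonspecific level either, the brightest reading being 2.14 for Chadl on the shHIF-2a array.

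**Figure D2:**
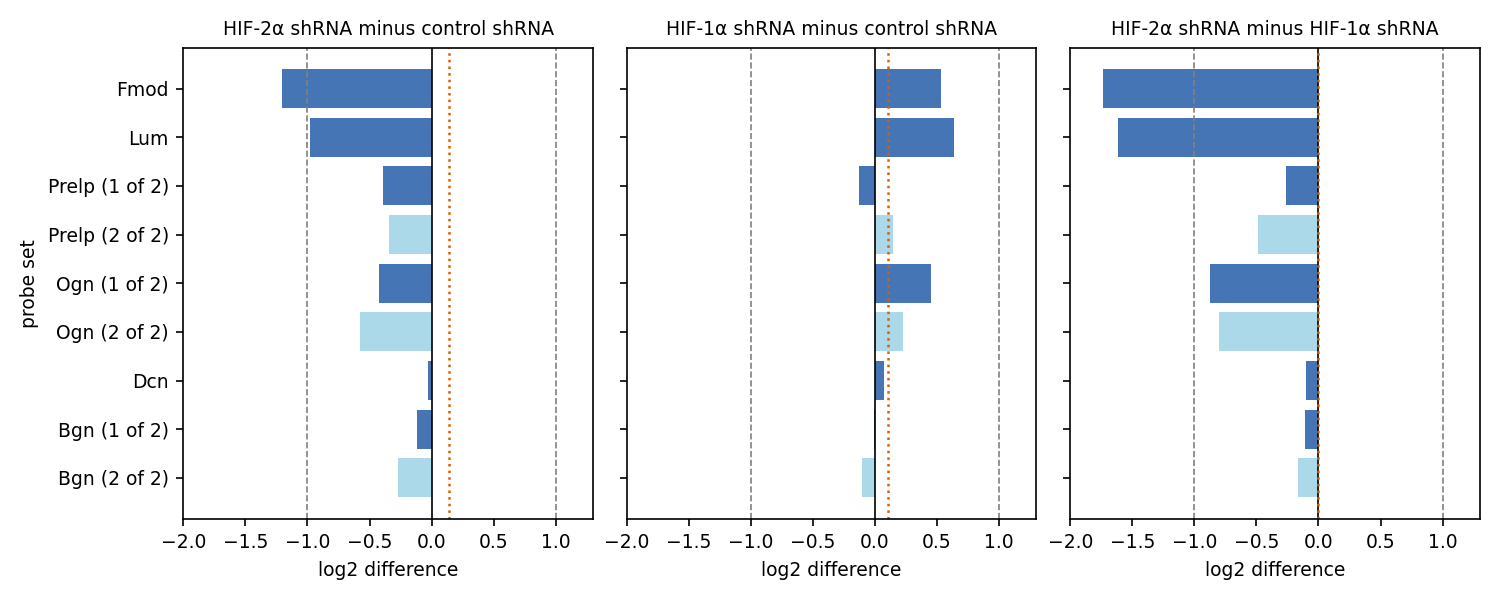
Log2 differences of the 9 detected probe sets in 3 comparisons (dark bars, the probe set that stands for its gene; light bars, a second probe set; dashed lines, 2-fold; dotted line, the median over all genes with a difference). All bars of the comparisons with the HIF-2α array on top point down, from −0.03 to −1.21 against control (Dcn, at −0.03, turned above 0 after either rescaling), and Fmod and Lum alone pass 2-fold against the HIF-1α array.

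Against control, then, the shHIF-2a array was lower for 6 of the 6 detected genes, or for 5 after either rescaling, when Dcn turned. Their median log2 difference was −0.41, against 0.14 over the 8886 genes with a difference. Of the members 1, Fmod, was at least 2-fold lower, as were 0.518% of all genes, and 0 were at least 2-fold higher, as were 7.62% of all. Over all genes, calls at 2-fold split into 93.6% higher as deposited and 74.9% higher after quantile normalization. As deposited, the median was 0.05 among the 5395 genes that read at least 16 on all 3 arrays, as the 6 members did. Of these genes 24.4% lay below 0 and 0.519% were at least 2-fold lower. The SD of the difference between probe sets of 1 gene, a technical spread that says nothing of the spread between cultures, was 0.16 on the log2 scale for probe sets of at least 64 and 0.36 for all detected ones. The differences of Fmod, Lum and Ogn exceeded both, as did that of Prelp on its brighter probe set but not, at −0.34, on its second. Fmod, Lum and Ogn read under 64 on the shHIF-2a array, so only the SD over all detected probe sets covers them. The differences of Dcn, and of Bgn on its brighter probe set, exceeded neither. That of Bgn on its second probe set, at −0.27, exceeded the 0.16 but not the 0.36.

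The shHIF-1a array was higher than control for 4 of the 6 genes (Lum, Fmod, Ogn and Dcn) and lower for Prelp and Bgn, with the exceptions by probe set and scaling given above. Among the genes that read at least 16 on all 3 arrays 57.2% were higher. The median was 0.26, against 0.10 over 8796 genes. None of the members was 2-fold apart, whereas 4.08% of all genes were at least 2-fold higher and 0.0568% at least 2-fold lower. The differences of Lum, Fmod and Ogn (0.45 on its brighter probe set, though not the 0.22 of its second for all detected ones) were larger than the SD between probe sets, which was 0.10 for probe sets of at least 64 and 0.29 for all detected ones. Both comparisons share the shCTR array, so its error enters each.

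The direct comparison of the shHIF-2a with the shHIF-1a array leaves the control out. All 6 genes were lower on the shHIF-2a array, also after both rescalings. As deposited, 24.6% of all genes with a difference were lower there and 30.5% were equal on both arrays. Of the genes at 16 or more on all 3 arrays 29.0% were lower, as deposited. Over genes detected on at least 1 array the median was −0.02 after either rescaling, so these shares do not carry over to the rescaled values. Fmod was 3.33-fold lower, at 60.3 on the shHIF-2a against 201.0 on the shHIF-1a array, and Lum 3.07-fold lower, at 21.6 on the shHIF-2a against 66.2 on the shHIF-1a array, though with 32 added before log2 Lum, at −0.87, was under 2-fold. These were the 2 members past 2-fold, beside 0.834% of all genes at least 2-fold lower. No member was 2-fold higher, against 1.18% of all. Ogn was 1.84-fold lower, and its other probe set 1.74-fold. Prelp differed by −0.26, or −0.49 on its second probe set, and Bgn by −0.11, or −0.17 on its second. Dcn differed by −0.10 on the log2 scale. The median of the 6 was −0.57, against 0.00 over 8878 genes, and the SD between probe sets was 0.12 at 64 or above and 0.18 for all detected ones. Adjacent genes thus differed in size: Lum by −1.62 beside Dcn by −0.10, and Fmod by −1.74 beside Prelp by −0.26.

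**Figure D3:**
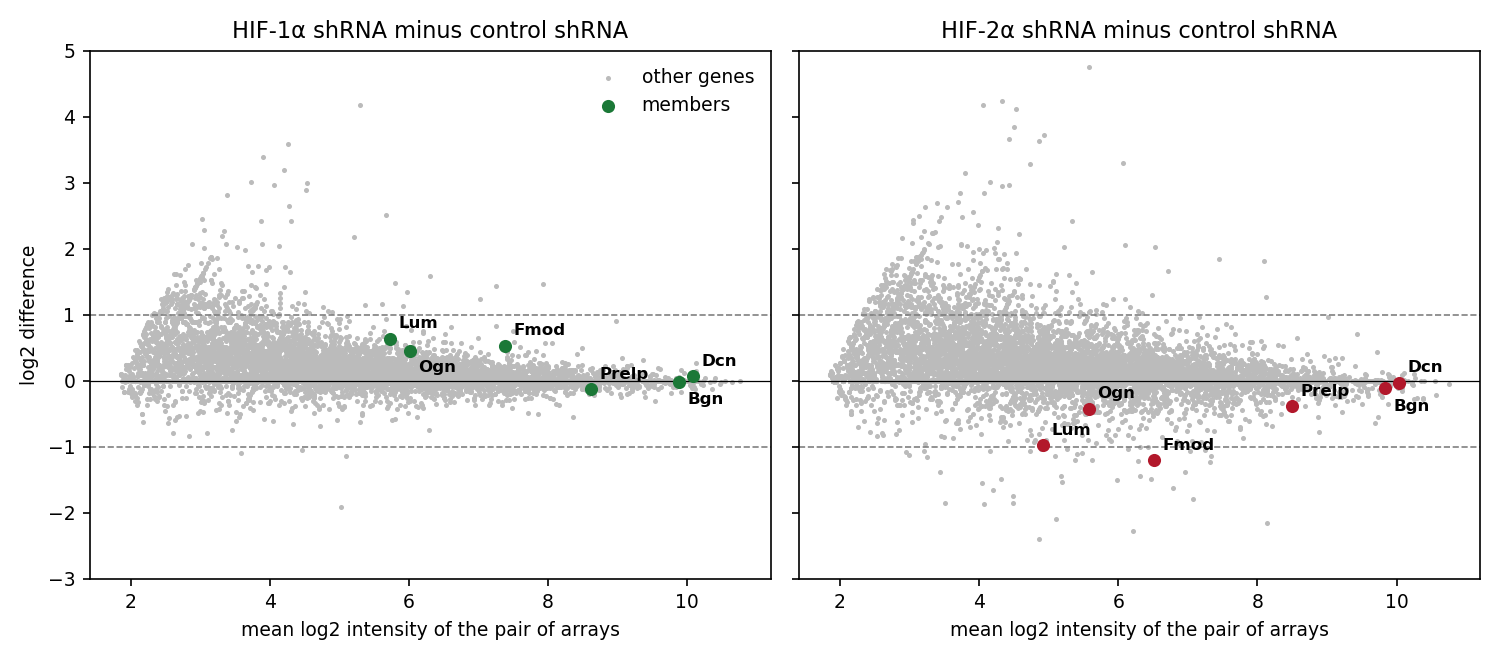
Log2 difference from control (vertical) against the mean log2 intensity of the 2 arrays compared (horizontal) for the 8250 genes detected on all 3 arrays, with the 6 detected members in colour (left, HIF-1α shRNA; right, HIF-2α shRNA; dashed lines, 2-fold). Fmod and Lum lie at 0.53 and 0.64 on the left and at −1.21 and −0.98 on the right, and Dcn and Bgn sit near 0 at the bright end of both.

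Other signals moved with the shHIF-2a array. The 12 detected hybridisation control probe sets, which report RNA added at hybridisation, were all lower there than on the shCTR array, by a median of −1.02, whereas on the shHIF-1a array the median was 0.08. Poly-A control probe sets had a median of 0.18 on either shRNA array. The log2 ratio of 3′ to 5′ signal of Actb was 0.61 on the shHIF-1a and 0.60 on the shHIF-2a array, against 0.47 on the shCTR array. The 5′ probe set of Tfrc lay under the nonspecific level on every array, and its 3′ probe set read 4.75 on the shHIF-1a array and 15.1 on the shHIF-2a array, against 2.30 on the shCTR array. Of the 5 chondrocyte markers Sox9, Col2a1 and Comp were detected and Acan and Matn1 were not. Their summed intensity was 577.3 on the shHIF-1a and 202.2 on the shHIF-2a array, against 453.2 on the shCTR array. Most of it came from Col2a1 and Comp, and Sox9 differed from control by −0.25 on the shHIF-2a array. The 5 adipocyte markers on the array summed to 664.5 on the shHIF-1a array and 252.2 on the shHIF-2a array, against 485.8 on the shCTR array. Most of that sum came from Lpl and Fabp4, which were 2.79-fold and 1.82-fold lower than control on the shHIF-2a array. There, Pparg differed from control by −0.28, Cebpa by 0.00 and Adipoq by a bound of 0.01. The sum of the 11 mesenchymal markers was 2004 on the shHIF-1a array and 1767 on the shHIF-2a array, against 1826 on the shCTR array. Most of it came from Cd44, Prrx1, Nt5e and Itgav. On the shHIF-2a array 6 of the 11 lay below control and 4 above, as deposited, while 18.4% of all genes lay below. The dimmer Thy1 was 1.94-fold lower than control there. Pdgfrb was 2.09-fold lower than on the shHIF-1a array, where 0.834% of all genes were at least 2-fold lower in that comparison. Of 5 smooth muscle markers Acta2 alone was detected, at 428.7 on the shHIF-1a array and 232.9 on the shHIF-2a array, against 373.6 on the shCTR array. Of the 4 osteoblast markers on the array none was detected, and of the 4 tendon markers Scx and Egr1 were and Tnmd and Mkx were not. The tendon markers summed to 302.9 on the shHIF-1a array and 303.3 on the shHIF-2a array, against 303.2 on the shCTR array, of which Egr1 made up 289.6 on each. The part of any of these in the differences of the proteoglycan genes was not tested.

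Of the 12 collagen genes whose products these proteoglycans bind or lie beside, 9 were detected. Of these, 2 were at least 2-fold lower than control on the shHIF-2a array, as were 0.518% of all genes. All 9 read below control there, also after both rescalings, with a median of −0.55 and a smallest difference of −0.17 for Col6a3. As deposited, 24.4% of the genes at 16 or more lay below 0. Over genes detected on at least 1 array the median was 0.15 as deposited, 0.03 after cyclic loess and −0.03 after quantile normalization. The undetected collagen genes were Col1a2, Col12a1 and Col14a1. At least 2-fold lower were Col2a1, the cartilage collagen, at 214.8 on the shHIF-1a and 63.3 on the shHIF-2a array, against 194.1 on the shCTR array, and Col1a1, the main bone collagen, at 126.9 on the shHIF-1a array and 48.1 on the shHIF-2a array, against 130.4 on the shCTR array. Col3a1, a fibrillar collagen of soft tissue, differed by −0.55 and Col5a2, which starts fibrils, by −0.20. With the HIF-1α hairpin 7 of the 9 lay above control and 2 below, with a median of 0.15 and none 2-fold apart. Of the genes at 16 or more 57.2% lay above control there, as deposited.

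Genes of proteases and helpers that process these proteoglycans or their partners showed a median of −0.36 on the shHIF-2a array. Of 9 detected genes of 12, 6 lay below control and 2 above, and none was 2-fold apart. After either rescaling 7 lay below and 2 above. Over all genes with a difference 18.4% lay below control there and the median was 0.14, as deposited. The stromelysin gene Mmp3 read 1181 on the shHIF-1a and 832.3 on the shHIF-2a array, against 1066 on the shCTR array. The collagenase gene Mmp13 read 661.0 on the shHIF-1a array and 362.0 on the shHIF-2a array, against 622.7 on the shCTR array.

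Of the genes that build the sugar chains none was 2-fold apart in any comparison, and their balance turned with the scaling. Of 17 with a difference among 23 on the array, 7 lay below and 7 above control on the shHIF-2a array, with a median of 0.00. After either rescaling 13 lay below and 4 above, with medians of −0.12 after cyclic loess and −0.11 after quantile normalization. Of all genes with a difference 18.4% lay below control on the shHIF-2a array and 15.0% were equal, as deposited. On the shHIF-1a array 10 of the chain genes lay above and 5 below as deposited, with a median of 0.11, and 7 above and 10 below after cyclic loess. Of all genes 15.5% lay below and 19.3% were equal there, as deposited. Between the shHIF-2a and shHIF-1a arrays 8 of the chain genes lay below and 3 above, and 14 of 16 lay below after cyclic loess and 13 of 14 after quantile normalization. Of all genes in that comparison 24.6% lay below and 30.5% were equal as deposited. The median over genes detected on at least 1 array moved from 0.00 to −0.02 with either rescaling. Nearest to 2-fold as deposited were B4galt7 and B3gat3, 1.98-fold and 1.96-fold higher than control on the shHIF-2a array. B3gat3 was 1.96-fold higher on the shHIF-1a array too. Chsy1, a chondroitin synthase, read 122.3 on all 3 arrays. Dsel, a gene of dermatan sulfate synthesis, read 72.5 on each shRNA array, against 78.0 on the shCTR array.

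Among receptors and growth factors that bind these proteins, 13 had a difference on the shHIF-2a array, of which 8 lay above and 4 below control. The median was 0.11, and −0.04 after quantile normalization. After either rescaling 6 of 12 lay above and 6 below. At least 2-fold higher there were Met, P2rx7 and Bmp4, as were 7.62% of all genes. Met, the hepatocyte growth factor receptor that decorin binds, read 15.4 on the shHIF-1a and 30.2 on the shHIF-2a array, against 10.8 on the shCTR array. P2rx7, an ATP-gated channel, read 10.1 on the shHIF-1a array and 12.1 on the shHIF-2a array, against 4.64 on the shCTR array. The growth factor gene Bmp4 read 4.14 on the shHIF-1a array and 8.17 on the shHIF-2a array, against 3.52 on the shCTR array. That control reading was close to the nonspecific level of 3.47, and all 3 genes were dim on the shCTR array. Of the list, 2 genes were at least 2-fold higher after cyclic loess and 1 after quantile normalization. On the shHIF-1a array 10 of 12 lay above control and P2rx7 alone was 2-fold higher, as were 4.08% of all genes. After cyclic loess 8 of the 12 lay above and after quantile normalization 6, and with either the 2-fold call was lost. Tlr2, a receptor for biglycan, read 132.0 on the shHIF-1a array and 75.3 on the shHIF-2a array, against 88.5 on the shCTR array, and Lrp1, an uptake receptor for decorin, 127.8 on the shHIF-1a array and 85.4 on the shHIF-2a array, against 127.8 on the shCTR array.

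**Figure D4:**
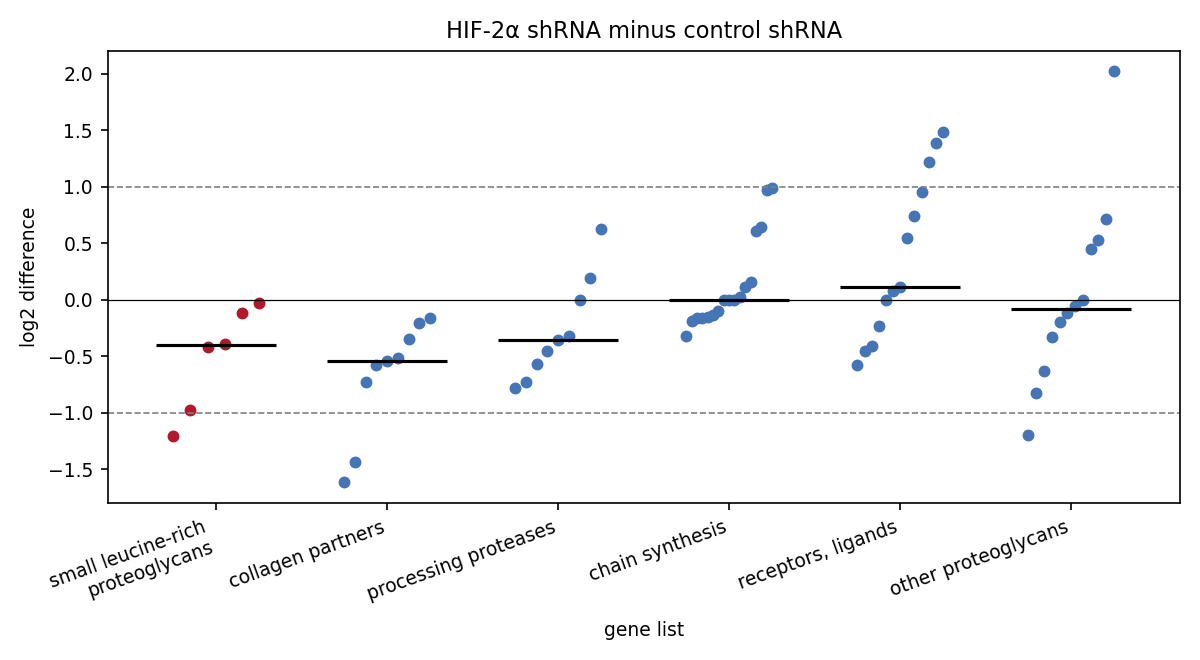
Log2 difference of the HIF-2α array from the shCTR array for each gene with a difference in 6 lists (1 point per gene; bar, the list's median; dashed lines, 2-fold). The proteoglycan and collagen genes all lie below 0 (Dcn above it after either rescaling), whereas chain synthesis, receptor and ligand, and other proteoglycan genes lie on both sides.

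Genes with the most similar pattern were sought by the Euclidean distance over the 2 log2 differences from control, among 8244 other genes detected on all 3 arrays. Nearest to Dcn were Etfa, Psenen and Etfrf1, to Bgn Rhobtb1, Commd3 and Dxo, and to Prelp Insig2, Oip5os1 and Cdc26, at distances of 0.0045 to 0.032. Fmod and Lum were added after their values were seen. Nearest to Fmod were Gstt1 at 0.063, Comp at 0.16 and Plin4 at 0.17, and nearest to Lum were Cyp7b1 at 0.082, Gpm6b at 0.084 and Comp at 0.10. Comp, the cartilage matrix protein that like fibromodulin binds collagen, read 324.5 on the shHIF-1a and 105.1 on the shHIF-2a array, against 218.4 on the shCTR array. With 3 arrays, likeness of this kind covers 2 differences and no more.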

How the data were processed

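Biotin-labelled cRNA, made from 1 µg of RNA according to the labels' protocols, was hybridised to 3 arrays, 1 per shRNA. The authors deposited 1 table of RMA intensities, a method that the submitters' processing notes name; version and settings: not given in the sources used here. The values run on a linear scale, as their range shows, and log2 was taken without further scaling (pandas 2.3.3, Python 3.11.15). Samples were grouped by their titles. Of 45141 probe sets, 28898 had 1 annotated gene, 28689 of them matched to RefSeq by Entrez number. The probe set of highest mean stands for its gene, and for the members every probe set is given. Where the dimmer value lay under 3.47 the fold is a bound against it, and where both did none is given. No test was run. Alternatives were cyclic loess and quantile scaling (limma 3.58.1, R 4.3.3), 32 added before log2, other levels, a minimum of 64 and other probe sets. Named beyond the members are genes of the 6 lists that were 2-fold apart in a comparison, the 2 brightest of each list, and 3 genes most like each of Dcn, Bgn and Prelp. Members, lists and rules were chosen with earlier results of these data known. The minimum of 16 was chosen after the values were seen. So were the markers, Tfrc, Actb, B4galt7, B3gat3 and undetected or least different collagen genes singled out by name. The number of arrays limits the precision.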

Additional observations from a re-analysis of the deposited data

How the results depend on the processing

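No paired analysis was possible because each shRNA has 1 array. Of 144 recomputed gene differences (6 members, 3 comparisons, 8 alternatives), 139 moved by less than the SD between probe sets of 1 gene over all detected genes, and the other 5 were of Lum, Fmod and Ogn with 32 added before log2 and of Prelp on its second probe set; 5 values turned sign, all of them for Dcn, Bgn or Prelp at sizes under 0.15. Many of the 139 could not move. Changing or removing the nonspecific level, or applying the minimum listed among the alternatives, left every member difference as it was. All 6 members passed these levels, which select genes and do not alter values. Using other probe sets cannot change Dcn, Lum or Fmod, which have 1 each. Leaving out probe sets marked as shared did not change Bgn or Ogn. The Fmod difference between the shHIF-2a and shCTR arrays ranged from −1.28 to −0.89 and that of Lum from −1.19 to −0.48. Members at least 2-fold lower on the shHIF-2a array numbered 2 after cyclic loess or quantile scaling and 0 with 32 added before log2, and against the shHIF-1a array 1 with 32 added. Without the nonspecific level the median over 9 genes in that comparison was −0.26; its construction adds 3 undetected genes. The other medians kept their sign. Counts over all genes depended on the scaling: for the shHIF-2a array against control, 46 lower and 677 higher as deposited became 69 and 423 after cyclic loess and 89 and 266 after quantile normalization, and for the shHIF-1a array, 5 and 359 became 6 and 227, and 10 and 123. The median over genes detected on at least 1 array was 0.15 for HIF-2α against control as deposited, 0.03 after cyclic loess and −0.03 after quantile normalization, and the cause was not tested.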

Other observations

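Proteoglycans outside the leucine-rich family lay on both sides of control. Of 12 detected genes among 16 on the array, 7 were lower and 4 higher on the shHIF-2a array, as deposited. Of all genes with a difference 18.4% lay below control there and 15.0% were equal. Agrn, the gene of agrin, a heparan sulfate proteoglycan of basement membranes, read 40.3 on the shHIF-1a and 75.01 on the shHIF-2a array, against 18.5 on the shCTR array, and was past 2-fold higher with both hairpins, except that quantile normalization left no gene of the list past 2-fold higher with the HIF-1α hairpin. Of all genes 7.62% were at least 2-fold higher than control on the shHIF-2a array and 4.08% on the shHIF-1a array. Gpc6, the gene of the membrane-anchored glypican 6, read 53.4 on the shHIF-1a array and 32.7 on the shHIF-2a array, against 74.8 on the shCTR array. It was the 1 gene of this list at least 2-fold lower on the shHIF-2a array, as were 0.518% of all genes. Prg4, the gene of the joint lubricant lubricin, read 918.6 on the shHIF-1a array and 666.1 on the shHIF-2a array, against 1032 on the shCTR array, and Sdc4, the gene of syndecan 4, read 415.3 on the shHIF-1a array and 290.8 on the shHIF-2a array, against 366.5 on the shCTR array.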
